A study of Mus musculus with 10 samples.

Results

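Collagens are the main structural proteins of the extracellular matrix, built from alpha chains that wind into a helix and are each encoded by a separate gene. The genes studied were, in interscapular brown adipose tissue of mice (a fat whose adipocytes burn fuel for warmth), every gene of the count table whose symbol reads Col, a type number, the letter a and a chain number. There were 44 such genes among the 20295 genes of the table, and 25 of the 44 had enough reads to be tested. The cold group was 5 male C57BL/6JBomTac mice of 8 weeks exposed to 4 °C for 3 days, and the control group was 5 male mice of the same strain and age kept at 22 °C. The count columns name every library WT (wild type) and no allele or transgene is labelled, all mice were single-housed on chow before the experiment, and 10 libraries represent the 10 mice. One label field of the cold samples names room temperature beside 4 °C, whereas their titles, source names and treatment protocol place them in the cold. Poly-A selected RNA of the whole depot was sequenced, so the RNA of adipocytes, vessels, nerves and stromal cells was measured together.

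Fibrillar collagens (types I, III and V here) form the fibrils of connective tissue and are made mostly by fibroblasts and their relatives. Basement membrane collagens (type IV, with types XV and XVIII) form or tie the sheet that surrounds every adipocyte and lines every capillary. Collagen VI forms beaded microfibrils that link that sheet to the fibrils, and it is abundant around adipocytes.

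Library totals lay between 5676963 and 6923932 counts in the cold group and between 4446163 and 5776905 counts in the control group. Levels below are CPM, the customary depth-normalised read count, here with TMM-scaled library totals, and levels of different genes are compared only as CPM per kilobase of counted bases. Changes are log2 fold changes of cold over control with their standard error (SE), from edgeR's quasi-likelihood test over all 11229 genes tested, called at a Benjamini-Hochberg adjusted p under 0.05. A pair of libraries stood apart within their groups in the collagens. Cold replicate 5 was the lowest of the 5 cold libraries for 16 of the 25 tested collagens (64%), against 29.4% of all genes tested. Control replicate 2 was the lowest control for 13 of the 25 (52%), against 28% of all genes tested. Both stayed in the main comparison. Since they were singled out by these levels, values without them are a description and lend no support to a call. The brown adipocyte markers Ucp1, Adipoq, Cidea, Plin1, Fabp4, Pparg, Cox7a1 and Cox8b were all measured, and their summed level was 35170 to 40250 CPM in cold and 26240 to 29370 CPM in control libraries. Of these 8 markers Ucp1 (1.02, adjusted p = 1.18e-05) and Cox7a1 (0.34, adjusted p = 0.00627) rose, and Adipoq (-0.72, adjusted p = 0.00519) and Cox8b (-0.34, adjusted p = 0.0214) fell; omitting control replicate 4, cold replicate 2 or cold replicate 4 ended the Cox8b call, as did the replicate block (0.0592).

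Of the 25 tested collagens, 5 rose and 2 fell in the cold. This is 20% higher, where 10.2% of all genes tested were called higher, and 9.16% of all genes tested were called lower. The 5 that rose were Col4a1, Col4a2, Col18a1, Col8a1 and Col13a1, and the 2 that fell were Col20a1 and Col23a1. Of these, Col13a1, Col20a1 and Col23a1 had enough reads to be tested only through the group where they were high. None of the 6 fibrillar and 3 tested microfibril genes passed the threshold with all 10 libraries, although 8 of these 9 had a positive log2 fold change. The median over the 25 tested collagens was 0.51, against -0.02 over all genes tested. In a bulk tissue, a change in the number of cells of a type and a change in RNA per cell cannot be told apart.

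**Figure D1:**
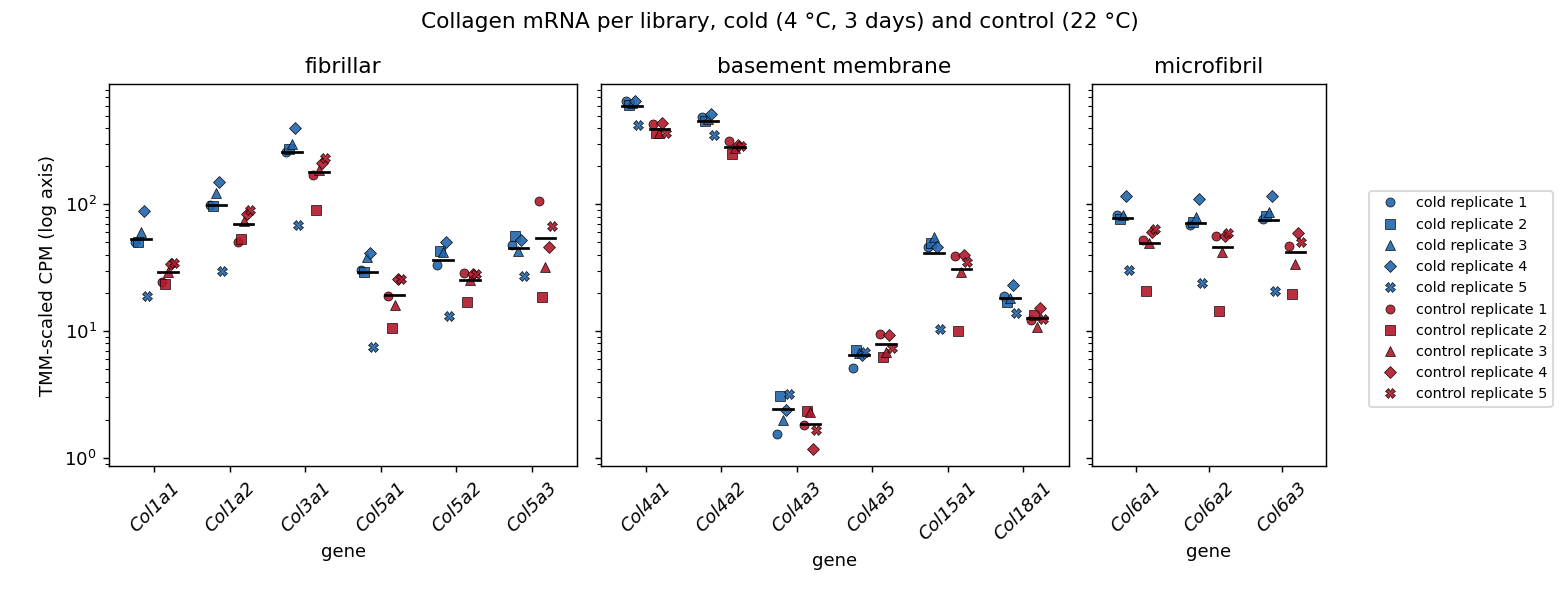
TMM-scaled CPM (log axis) of the 15 tested genes of the fibrillar, basement membrane and microfibril classes in each library, with 5 cold libraries to the left (blue) and 5 control libraries to the right (red) of each gene; black bars are group means. Cold replicate 5 (blue cross) and control replicate 2 (red square) lie below the rest of their groups for most fibrillar and all microfibril genes, whereas for Col4a2 every cold library lies above every control.

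Col4a1 and Col4a2 encode the chains that make up the common type IV network of basement membranes, and they were the most abundant collagens of the tissue. The genes lie head to head on chromosome 8 of mm9, Col4a1 on the minus strand (11198423 to 11312826) and Col4a2 on the plus strand (11312829 to 11449287), with 2 bases between the gene models. Because these neighbours changed together, the sequence around their starts is shown. It comes from RefSeq's GRCm38.p6 promoter windows of 250 bases before to 50 after each start (35 of the 44 collagens had a window). By the starts of these windows the first bases of the genes overlap, unlike in the mm9 gene models. The windows are chr8:11312777-11313076, minus strand, for Col4a1 and chr8:11312555-11312854, plus strand, for Col4a2, each written 5′ to 3′ on its own strand. Capitals mark the 78 bases that both windows share, which the strands read as reverse complements.
Col4a1: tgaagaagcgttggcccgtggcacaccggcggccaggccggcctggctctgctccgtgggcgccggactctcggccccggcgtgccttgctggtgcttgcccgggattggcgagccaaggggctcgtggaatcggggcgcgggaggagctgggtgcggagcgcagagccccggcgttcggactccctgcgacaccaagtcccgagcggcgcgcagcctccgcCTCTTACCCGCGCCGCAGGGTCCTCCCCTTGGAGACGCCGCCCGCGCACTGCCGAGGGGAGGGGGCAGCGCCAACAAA
Col4a2: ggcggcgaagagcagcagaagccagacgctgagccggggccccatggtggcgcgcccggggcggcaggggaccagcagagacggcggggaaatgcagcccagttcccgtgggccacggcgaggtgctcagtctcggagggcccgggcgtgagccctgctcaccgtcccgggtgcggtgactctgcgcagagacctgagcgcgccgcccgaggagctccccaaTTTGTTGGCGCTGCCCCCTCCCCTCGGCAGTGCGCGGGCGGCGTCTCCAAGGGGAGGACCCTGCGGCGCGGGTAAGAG
The windows were 74% and 73.7% G and C, where the median of all 32851 windows was 52.7%. On either strand, CCCCTCCCC and GGGCGG occurred in the shared bases, and 6.37% and 35.7% of all windows hold these letters. CCAAT occurred in both windows but not whole within the shared bases (37.4% of all windows), and TATAAA occurred in neither (13.6% of all windows). These are matches of letters, not binding sites, and these motifs do not overlap each other.

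Col4a1 stood at 646, 609.7, 630.1, 650.1 and 420.3 CPM in cold replicates 1 to 5, against 427, 366, 367, 434 and 367 CPM in control replicates 1 to 5. The first 4 cold libraries lay close together and above every control, while cold replicate 5 lay within the control range. The gene averaged 591 ± 96.9 CPM in cold and 392 ± 34.9 CPM in control libraries (SD, n = 5 each), a 1.51-fold rise (log2 fold change 0.59, SE 0.12, adjusted p = 0.00391 in edgeR's quasi-likelihood test).

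Col4a2 stood at 486, 455, 468, 519 and 349.7 CPM in cold replicates 1 to 5, against 317, 247, 279.5, 292 and 286 CPM in control replicates 1 to 5. No cold library overlapped a control, and it was the only one of the 25 tested collagens for which all cold libraries were higher, where this held for 7.39% of all genes tested. The rise was 1.6-fold (0.68, SE 0.11, adjusted p = 0.000855). Both rises passed the threshold whichever single library was omitted, with adjusted p between 0.000127 and 0.0132 for Col4a1 and between 9.46e-05 and 0.00349 for Col4a2. Per kilobase, Col4a2 was at 0.797 ± 0.0404 of the Col4a1 level in cold and 0.748 ± 0.0506 of it in control libraries (SD, n = 5 each), and the groups overlapped.

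The other type IV chains, which build the networks of specialised basement membranes such as those of the kidney, were scarce. They sit in head-to-head pairs as well, with 71 bases between Col4a3 and Col4a4 and 1342 bases between Col4a5 and Col4a6. Per kilobase, Col4a5 (chromosome X) averaged 1.02 in cold and 1.24 in control libraries, against 89.4 and 59.3 for Col4a1. Col4a5 was at 5.14 to 7.13 CPM in cold and 6.26 to 9.48 CPM in control libraries, which gave -0.28 on the log2 scale (SE 0.17, adjusted p = 0.27). Col4a3 was at 1.54 to 3.17 CPM in cold and 1.18 to 2.35 CPM in control libraries (0.40, SE 0.29, adjusted p = 0.359). Col4a4 had 2 to 12 counts and Col4a6 0 to 3 counts in a library, and neither was tested. The Col4a1 and Col4a2 pair together held most of the summed level of the class (51.6% and 41.1% in cold, 52.3% and 39.1% in control libraries).

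Collagens XV and XVIII sit at the outer face of basement membranes and end in endostatin-type domains. Col18a1 (chromosome 10, 76514924 to 76629275) stood at 19, 17.1, 18.3, 23.1 and 14 CPM in cold replicates 1 to 5, against 12.2, 13.3, 10.8, 15.1 and 12.6 CPM in control replicates 1 to 5. Only cold replicate 5 fell below the highest control. The rise was 1.43-fold (0.51, SE 0.15, adjusted p = 0.026). Omitting 1 library ended the call in 5 of 10 cases, with adjusted p of 0.0603 and 0.0552 without control replicates 3 and 5, and of 0.0556, 0.055 and 0.0707 without cold replicates 1, 3 and 4.

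Col15a1 (chromosome 4, 47220884 to 47326037) stood at 46.1, 49.1, 55.6, 45.9 and 10.5 CPM in cold replicates 1 to 5, against 39.3, 9.98, 29.3, 40.2 and 34.8 CPM in control replicates 1 to 5. Apart from cold replicate 5 every cold library exceeded every control, and cold replicate 5 stood next to control replicate 2, near the bottom of both groups. The log2 fold change of 0.44 (SE 0.39) did not pass the test (adjusted p = 0.459). It was 0.68 (adjusted p = 0.102) without cold replicate 5 and 0.21 (adjusted p = 0.685) without control replicate 2. With both omitted it was 0.45 (SE 0.11, adjusted p = 0.0108), but these are the lowest library of each group, so their omission narrows the spread by construction.

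Type I collagen is a heterotrimer of Col1a1 and Col1a2 chains and makes up the bulk of most fibrils. Col1a1 (chromosome 11, 94797584 to 94813170) stood at 50, 50.2, 60.3, 88.1 and 18.9 CPM in cold replicates 1 to 5, against 24.6, 23.5, 29.1, 34 and 34.2 CPM in control replicates 1 to 5. Of the cold libraries, 4 exceeded every control and cold replicate 5 lay below every control. Col1a1 averaged 53.5 ± 24.8 CPM in cold and 29.1 ± 5.03 CPM in control libraries (SD, n = 5 each), or 0.88 on the log2 scale (SE 0.29, adjusted p = 0.0503). It passed with DESeq2 (adjusted p = 0.0167), with RLE factors (0.0496), with library sizes without the 20 most abundant genes (0.0491), with no filter (0.0434) and without cold replicate 5 (1.09, SE 0.18, adjusted p = 0.00133). It did not pass with limma-voom (adjusted p = 0.132), the replicate block (0.0834), upper quartile factors (0.056), no factors (0.0521) or CPM above 1 in 5 libraries (0.051). Nor did it pass in the other 9 single omissions, and it was at 0.63 (adjusted p = 0.136) without cold replicate 4. Over 20 alternatives 6 called it, among them the omission of control replicate 2 and cold replicate 5 together (0.00102).

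Col1a2 (chromosome 6, 4455697 to 4491543) stood at 99.4, 96.7, 122, 149 and 29.7 CPM in cold replicates 1 to 5, against 50.6, 53.2, 73.4, 83.5 and 89.6 CPM in control replicates 1 to 5. It had the same order of cold libraries at its ends, replicate 4 highest and replicate 5 lowest. The log2 fold change was 0.51 (SE 0.31, adjusted p = 0.283), and 0.73 (SE 0.18, adjusted p = 0.0135) without cold replicate 5. Without cold replicate 4, its highest library, Col1a2 was at 0.32 (adjusted p = 0.545). Per kilobase, the ratio of Col1a1 to Col1a2 was 0.539 to 0.695 in cold libraries and 0.418 to 0.533 in control libraries, cold replicate 5 included. It was the only 1 of 8 chain ratios computed, all chosen after the counts were seen, in which the groups did not overlap.

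Col3a1, the chain of type III collagen, was the most abundant fibrillar transcript (chromosome 1, 45368383 to 45406551). It stood at 260, 272, 299, 399.8 and 68.1 CPM in cold replicates 1 to 5, against 170, 90, 187, 213 and 233 CPM in control replicates 1 to 5. Again 4 cold libraries lay above and 1 lay below all 5 controls. The log2 fold change was 0.54 (SE 0.36, adjusted p = 0.309), and 0.78 (SE 0.22, adjusted p = 0.0256) without cold replicate 5. It was 0.33 (adjusted p = 0.576) without cold replicate 4, the highest library, and 0.37 (adjusted p = 0.467) without control replicate 2.

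Type V collagen starts and thins the fibrils of types I and III. Col5a2 (chromosome 1, 45431176 to 45560127), whose gene ends 24624 bases from that of Col3a1, stood at 33.3, 42.6, 42.4, 50.6 and 13.3 CPM in cold replicates 1 to 5, against 28.9, 16.8, 25.2, 28.2 and 28.4 CPM in control replicates 1 to 5. Col5a1 (chromosome 2, 27741945 to 27895030) stood at 30.3, 29.3, 38.3, 41.5 and 7.47 CPM in cold replicates 1 to 5, against 19, 10.6, 16.1, 25.6 and 26 CPM in control replicates 1 to 5. Both repeated the pattern of types I and III, with log2 fold changes of 0.52 (SE 0.27, adjusted p = 0.203) for Col5a2 and 0.60 (SE 0.35, adjusted p = 0.257) for Col5a1. Without cold replicate 5 both passed, Col5a2 at 0.72 (adjusted p = 0.00777) and Col5a1 at 0.83 (adjusted p = 0.0179). Without cold replicate 4 they were at 0.37 (adjusted p = 0.41) and 0.45 (adjusted p = 0.462).

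Col5a3, a further type V chain (chromosome 9, 20574494 to 20619478), did not follow them. It stood at 48.2, 55.8, 42.8, 52.5 and 27.1 CPM in cold replicates 1 to 5, against 106, 18.6, 32.1, 45.7 and 67.8 CPM in control replicates 1 to 5. The control libraries spanned a wider range than the cold ones, and the highest and the lowest library were both controls. The log2 fold change was -0.25 (SE 0.36, adjusted p = 0.664), and 0.14 (adjusted p = 0.78) without control replicate 1. Per kilobase, Col5a3 was at 2.62 ± 1.39 times the Col5a1 level in cold and 3.8 ± 2.25 times in control libraries (SD, n = 5 each).

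In all 3 tested chains of collagen VI, cold replicate 4 was the highest and cold replicate 5 the lowest cold library. Col6a1 (chromosome 10, 76171537 to 76188789) stood at 82.4, 76.1, 81.6, 116 and 30.4 CPM in cold replicates 1 to 5, against 52.4, 20.8, 49.1, 60.3 and 63.4 CPM in control replicates 1 to 5. Col6a2, on the same strand of that chromosome (76058501 to 76086149), stood at 68.6, 72.9, 79.2, 110.4 and 23.9 CPM in cold replicates 1 to 5, against 56.2, 14.3, 42, 56.3 and 59.5 CPM in control replicates 1 to 5. Col6a3, the large chain whose released end is known as endotrophin (chromosome 1, 92663435 to 92740548), stood at 76.3, 80.6, 86.2, 115 and 20.5 CPM in cold replicates 1 to 5, against 46.5, 19.6, 33.7, 59.8 and 50.1 CPM in control replicates 1 to 5. For each chain 4 cold libraries exceeded all controls, and cold replicate 5 lay between control replicate 2, the lowest control, and the other controls.

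The log2 fold changes were 0.65 (SE 0.32, adjusted p = 0.163) for Col6a1, 0.64 (SE 0.37, adjusted p = 0.25) for Col6a2 and 0.85 (SE 0.36, adjusted p = 0.118) for Col6a3. Without cold replicate 5, Col6a1 was at 0.85 (adjusted p = 0.0282) and Col6a3 at 1.09 (adjusted p = 0.00855). Col6a2 was at 0.85 without it (adjusted p = 0.0637), while omitting control replicate 2 as well gave 0.62 (adjusted p = 0.00834). Without control replicate 2 alone Col6a2 was at 0.41 (adjusted p = 0.355), Col6a1 at 0.45 (0.238) and Col6a3 at 0.67 (0.178). Without cold replicate 4 Col6a2 was at 0.43 (adjusted p = 0.492), Col6a1 at 0.46 (0.364) and Col6a3 at 0.65 (0.271). Per kilobase, Col6a2 was at 0.959 ± 0.0905 of Col6a1 in cold and 0.957 ± 0.15 of it in control libraries (SD, n = 5 each). Col6a4, Col6a5 and Col6a6, which encode alternatives to the Col6a3 chain, had at most 7 counts in a library.

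**Figure D2:**
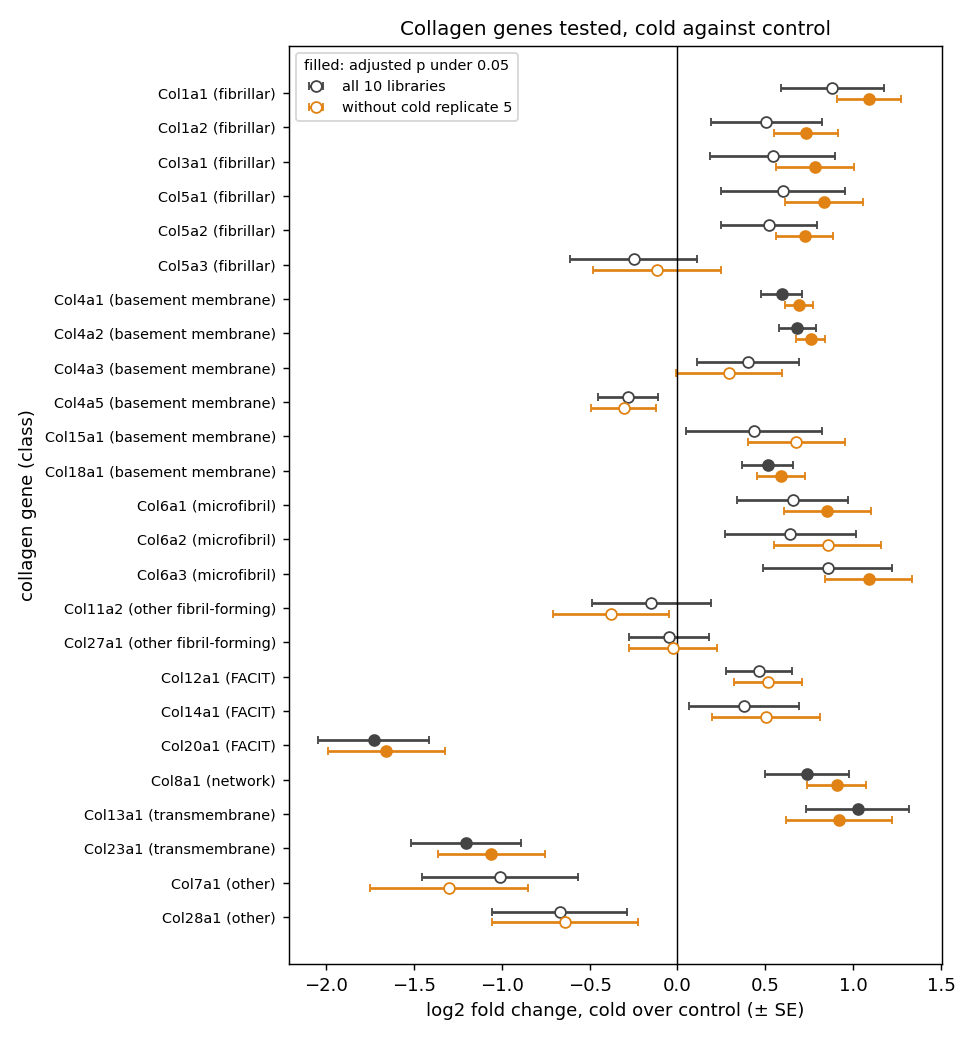
Log2 fold change of cold over control (x axis, bars are the SE) for the 25 tested collagens, grouped by class, from all 10 libraries (grey) and without cold replicate 5 (orange); filled points have an adjusted p under 0.05. Of 25 collagens, 5 are called higher with all libraries (10.2% of all genes tested) and 12 of 26 tested without cold replicate 5 (11.5%). Col20a1 and Col23a1 are called lower in both, where 9.16% and 9.91% of all genes are. Cold replicate 5 was singled out by its low collagen levels, so the counts without it are a description only.

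Without cold replicate 5, 12 of 26 tested collagens were called higher (46.2%), where 11.5% of all genes tested in that comparison were. They held the 5 called with all libraries and added Col1a1, Col1a2, Col3a1, Col5a1, Col5a2, Col6a1 and Col6a3. Leaving out control replicate 2 and cold replicate 5 together gave 13 higher, with Col15a1 and Col6a2 added and Col13a1 lost, where 13.6% of all genes were. In these comparisons 2 collagens were called lower, where 9.91% (cold replicate 5 omitted) and 11.7% (both omitted) of all genes were. The omitted libraries were singled out by their low collagen levels. The shares of all genes are therefore not a like background here, and these counts are a description only. The smallest counts, 2 higher, came without control replicate 3 (9.1% of all genes called higher) and without control replicate 5 (8.23%), and both times these were Col4a1 and Col4a2. The count was 3 without control replicate 2, where 11.3% of all genes were called higher. It was also 3 without cold replicate 1, 2, 3 or 4, where 8.13%, 7.84%, 7.29% and 7.43% of all genes were.

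Summed per kilobase, the classes differed in how far the libraries spread. The 8 basement membrane genes summed to 187, 177, 184, 194 and 124 CPM per kb in cold replicates 1 to 5, against 125, 99.7, 108, 123 and 110.5 CPM per kb in control replicates 1 to 5. The 6 fibrillar genes summed to 93.3, 97.5, 108, 141 and 29.4 CPM per kb in cold replicates 1 to 5, against 69.7, 38.4, 65.1, 76.6 and 85.1 CPM per kb in control replicates 1 to 5. The 6 microfibril genes summed to 47.6, 47.7, 51.4, 71.7 and 16.4 CPM per kb in cold replicates 1 to 5, against 33.5, 11.3, 27.4, 37.1 and 37.5 CPM per kb in control replicates 1 to 5. In every class cold replicates 1 to 4 exceeded all controls, and cold replicate 5 lay below all controls only in the fibrillar class.

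The difference between the groups' mean log2 sums, cold minus control, was 0.60 for the basement membrane class, with a pooled SD between libraries of 0.21. It was 0.37 for the fibrillar class (pooled SD 0.69) and 0.65 for the microfibril class (pooled SD 0.77). Only the basement membrane difference was larger than the spread between libraries. No test was run on these sums, because the genes were chosen with results of these data known. Without cold replicate 5 the differences were 0.71 for the basement membrane, 0.75 for the fibrillar and 0.99 for the microfibril class.

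**Figure D3:**
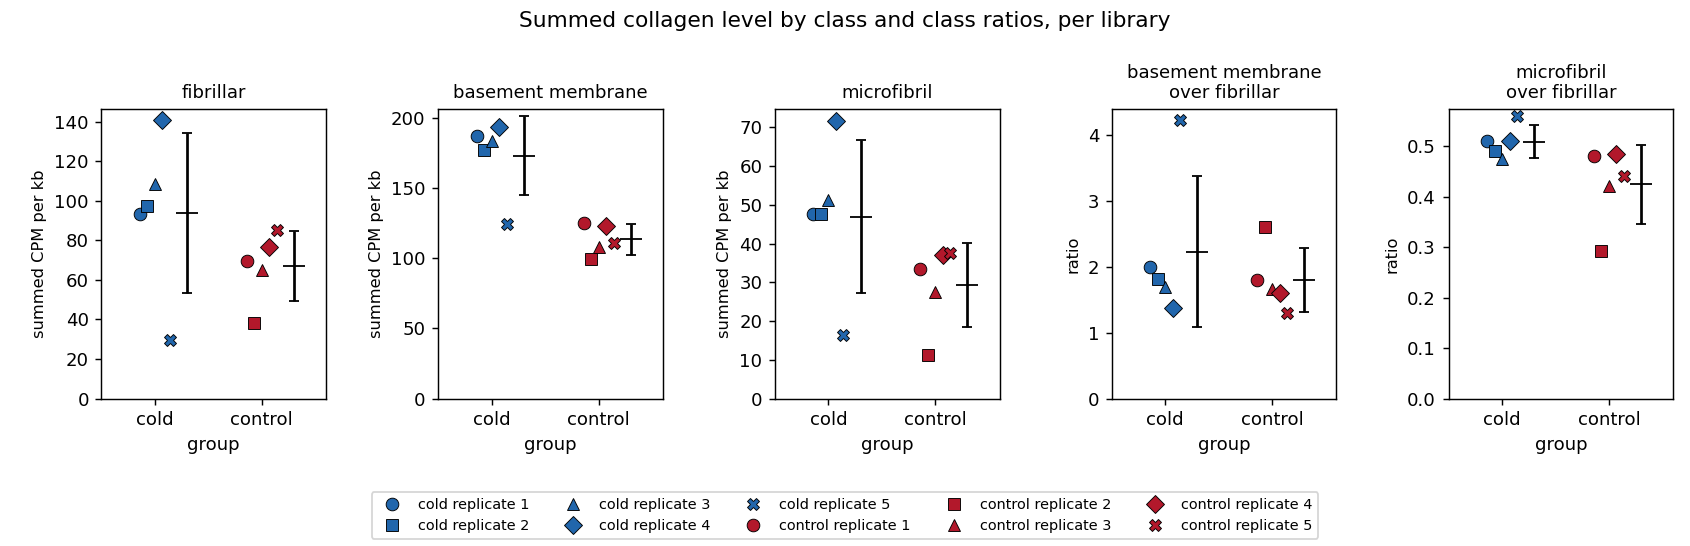
Summed level in CPM per kb of the fibrillar, basement membrane and microfibril collagens, and the ratio of the last pair of classes to the fibrillar one, in each of 5 cold (blue, left) and 5 control (red, right) libraries; black bars are the mean and SD. Cold replicate 5 is the lowest cold library in all 3 sums and the highest in both ratios, at 4.23 for basement membrane over fibrillar, where the other 4 cold libraries lie at 1.38 to 2.

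The balance between the basement membrane and fibrillar classes was similar in most libraries (difference of mean log2 ratios 0.23, pooled SD 0.51). The ratio of basement membrane to fibrillar collagen was 2, 1.82, 1.69, 1.38 and 4.23 in cold replicates 1 to 5, against 1.8, 2.6, 1.66, 1.61 and 1.3 in control replicates 1 to 5. Cold replicate 5 and control replicate 2 thus held the highest ratio of their groups, and the ranges of the remaining libraries overlapped. The ratio of microfibril to fibrillar collagen was 0.474 to 0.56 in cold and 0.293 to 0.484 in control libraries. Only cold replicate 3 fell below the highest control, and the difference of mean log2 ratios was 0.28 (pooled SD 0.22), larger than the spread between libraries. It was not tested. Of the summed level of all collagens, the basement membrane class held 53.9 ± 8.01% in cold and 50.9 ± 6.47% in control libraries (SD, n = 5 each). The fibrillar class held 26.9 ± 6.62% in cold and 29.2 ± 3.67% in control libraries, and the microfibril class 13.6 ± 2.92% in cold and 12.5 ± 3.25% in control libraries. Within the fibrillar class Col3a1 alone held 48.5 ± 3.85% in cold and 47.4 ± 4.14% in control libraries.

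Among the collagens outside these classes, 2 rose and 2 fell. Col8a1, a short-chain collagen of vessel walls (chromosome 16, 57624369 to 57754850), stood at 23.7, 19.4, 17.1, 16.3 and 8.03 CPM in cold replicates 1 to 5, against 11.3, 10.8, 9.17, 11.9 and 7.42 CPM in control replicates 1 to 5. Of the cold libraries, 4 lay above every control, and the rise was 0.74 (SE 0.24, adjusted p = 0.0452). Omitting 1 library ended the call in 9 of 10 cases, at the most with an adjusted p of 0.112 (cold replicate 1 omitted). The exception was cold replicate 5 (0.90, adjusted p = 0.00257). The call was also lost with upper quartile factors (0.0507) and limma-voom (0.0939).

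Col13a1, a transmembrane collagen known from nerve-muscle contacts (chromosome 10, 61301246 to 61441856), was scarce, at 2.74, 4.03, 2.84, 3.16 and 4.48 CPM in cold replicates 1 to 5, against 1.58, 1.37, 1.15, 2.86 and 1.24 CPM in control replicates 1 to 5. Unlike the fibrillar genes, Col13a1 was highest in cold replicate 5. It exceeded the filter of 1.75 CPM in 5 cold libraries and 1 control library, and 5 libraries are needed. It was thus tested only through the cold group, where it was high. The rise was 1.03 (SE 0.29, adjusted p = 0.0265), and 1.35 (adjusted p = 0.00898) without control replicate 4, the high control. The call was lost without control replicates 2 (adjusted p = 0.0511), 3 (0.0621) and 5 (0.0682), without cold replicate 2 (0.0648) and with the replicate block (0.0532).

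Col20a1, a collagen of the fibril-associated family (FACIT; chromosome 2, 180721240 to 180752245), stood at 1.2, 1.55, 1.56, 0.949 and 0.933 CPM in cold replicates 1 to 5, against 2.03, 5.68, 3.21, 4.54 and 5.36 CPM in control replicates 1 to 5. All cold libraries lay below all controls, as for 6.58% of all genes tested, and no other tested collagen showed this. The fall was 3.31-fold (-1.73, SE 0.31, adjusted p = 0.0024), and it rests on 5 to 11 counts in a cold and 9 to 29 counts in a control library. Col23a1, another transmembrane collagen (chromosome 11, 51103422 to 51397427), stood at 2.23, 1.55, 3.13, 4.27 and 1.31 CPM in cold replicates 1 to 5, against 3.84, 6.26, 5.04, 5.71 and 8.24 CPM in control replicates 1 to 5. The groups overlapped only through cold replicate 4 and control replicate 1, and the fall was -1.20 (SE 0.31, adjusted p = 0.0172). Both falls were called in every alternative fit, but these fits share most of their libraries. Col20a1 exceeded the filter of 1.75 CPM in 0 cold and 5 control libraries. With the filter it was thus tested only through the group where it was high. Col23a1 exceeded the filter in 3 cold and 5 control libraries. As 5 libraries are needed, it too was tested only through the control group, where it was high.

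Of the remaining 6 tested collagens none passed. Col27a1, a fibril-forming chain of cartilage and other tissues, was as abundant per kilobase as Col5a3, at 8.07 in cold and 8.35 in control libraries, and its groups differed by -0.05 on the log2 scale (SE 0.23, adjusted p = 0.902). Unlike for types I and III, cold replicate 5 (57.1 CPM) was not its lowest cold library, and the range was 46.7 to 78.7 CPM in cold and 31.7 to 86.1 CPM in control libraries. The fibril-associated Col12a1 and Col14a1 were at 0.46 (SE 0.19, adjusted p = 0.102) and 0.38 (SE 0.32, adjusted p = 0.43). Col11a2 was at -0.15, Col28a1 at -0.67 and Col7a1, which makes the anchoring fibrils of skin, at -1.01 (SE 0.44, adjusted p = 0.126), and these 3 genes averaged under 3 CPM in either group.

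The other 19 collagens were not tested, and 14 of them had 10 counts or fewer over all 10 libraries together. Col6a5, Col9a1 and Col24a1 had 0 counts in every library, which allows up to 3 counts over the 10 libraries. Col16a1, a fibril-associated collagen, had 2 to 13 counts in a library and Col19a1 0 to 5 counts. The cartilage chains Col2a1, Col9a2, Col9a3 and Col11a1, with Col8a2, Col17a1, Col22a1, Col25a1 and Col26a1, had at most 4 counts in any library. Among the untested, Col10a1, a cartilage collagen, had 14, 7, 15, 8 and 6 counts in cold replicates 1 to 5, against 1, 2, 1, 2 and 3 counts in control replicates 1 to 5, so the groups did not overlap. With no filter on low counts it was called higher (2.07, SE 0.46, adjusted p = 0.00719), where 7.18% of all genes were called higher. Its gene lies wholly within the span of Nt5dc1 on the opposite strand, which averaged 47.4 CPM in cold and 46.4 CPM in control libraries. No strand setting of the counting is given. As the library kit does not mark strand, the Col10a1 counts cannot be assigned to its own strand. The 5 tested genes Col4a3, Col7a1, Col13a1, Col20a1 and Col28a1 exceeded the filter of 1.75 CPM in at most 2 libraries of one group. Their place among the tested genes depended mainly on the other group, and wholly so for Col20a1, with 0 cold libraries over the filter. For Col13a1, with 5 cold libraries and 1 control library over it, the cold group alone met the 5 libraries needed.

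In the authors' deposited table, which lists 24 collagens, 7 were called higher and 2 lower at an adjusted p under 0.05, where 10.7% of its genes were called higher and 9.07% lower. The authors' deposited table adds Col1a1 (log2 fold change 0.87, adjusted p = 0.00868) and Col6a3 (0.85, adjusted p = 0.0469) to the 7 called here.

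Collagen chains are hydroxylated and folded in the endoplasmic reticulum, trimmed outside the cell and then crosslinked. Of 21 tested genes of chain modification and folding, 2 rose and 2 fell (median log2 fold change 0.20, against -0.02 over all genes tested). This is close to the 10.2% of all genes tested that were called higher and the 9.16% called lower, which are the background of the other lists as well. P4ha1, a catalytic subunit of prolyl 4-hydroxylase, stood at 60.7, 62.2, 59, 62.2 and 65.3 CPM in cold replicates 1 to 5, against 35.7, 24.7, 24.8, 25 and 19.2 CPM in control replicates 1 to 5. Its groups did not overlap, cold replicate 5 was its highest library, and it rose by 1.26 (SE 0.13, adjusted p = 4.66e-05). Fkbp14, a proline isomerase, fell by 0.62 (SE 0.17, adjusted p = 0.0191). Glt25d1, which adds galactose to collagen, was higher by 0.30 (adjusted p = 0.0373), and Leprel4, a partner of lysine hydroxylation, was lower with a log2 fold change of -0.55 (adjusted p = 0.0214); these were named after their values were seen. Of 10 single omissions 7 ended the Glt25d1 call and 3 the Leprel4 call (highest adjusted p 0.099 and 0.0589), as did the replicate block for both (0.055 and 0.0527) and no filter for Glt25d1 (0.0508). The count of higher genes was 1 when control replicate 4 or 5 or cold replicate 1, 3 or 4 was omitted. It was 3 when cold replicate 5 was. The count of lower genes was 1 when control replicate 4, cold replicate 1 or cold replicate 2 was omitted. It was 3 when control replicate 1 was.

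Of 15 tested genes of trimming, crosslinking and fibril binding, 5 rose and 0 fell (median 0.42), where 10.2% of all genes tested were called higher and 9.16% lower. Loxl1, an oxidase that crosslinks elastin and collagen, stood at 77.5, 85.6, 107, 100.1 and 106 CPM in cold replicates 1 to 5, against 35.7, 30.7, 41.3, 34.1 and 29.5 CPM in control replicates 1 to 5. No cold library overlapped a control, and the rise was 1.48 (SE 0.12, adjusted p = 1.11e-05). Pcolce, which speeds the trimming of procollagen, rose by 1.08 (SE 0.27, adjusted p = 0.0135), with cold replicate 5 (26.9 CPM) within the control range of 17.2 to 39.7 CPM and the other 4 cold libraries at 71.5 to 77.8 CPM. Biglycan (Bgn), a fibril-binding proteoglycan, rose by 0.73 (SE 0.17, adjusted p = 0.00891). Loxl2, another crosslinking oxidase (0.82, adjusted p = 0.0199), and Sparc, an abundant collagen-binding protein (0.42, adjusted p = 0.0438), were also called, and these were named after their values were seen. Of 10 single omissions 8 ended the Sparc call and 2 the Loxl2 call (highest adjusted p 0.105 and 0.0556), and upper quartile factors ended the Sparc call (0.0579). Without cold replicate 1 or 4 the count of higher genes was 3, and without control replicate 1, 1 gene was lower.

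Of 16 tested genes of collagen breakdown, 1 rose and 1 fell (median 0.29), each a smaller share than the 10.2% called higher and 9.16% called lower of all genes tested. Mmp14, a membrane-bound collagenase, rose by 0.95 (SE 0.27, adjusted p = 0.0243), a call lost without cold replicate 1, 2 or 4 (adjusted p of up to 0.068) and with limma-voom (0.0815). Mmp19, a secreted metalloproteinase, stood at 27.8, 24, 21.5, 27.4 and 32.3 CPM in cold replicates 1 to 5, against 61.2, 40.1, 51.1, 47.2 and 61.6 CPM in control replicates 1 to 5. Its groups did not overlap and it fell by 0.98 (SE 0.14, adjusted p = 0.000475). The count of higher genes was 0 without cold replicate 1, 2 or 4, 2 without control replicate 3, 4 or 5, 3 without control replicate 1 or 2, and 4 without cold replicate 5, when 3 were lower. Part of this count was Timp1, an inhibitor of metalloproteinases, named after its values were seen. It was too scarce to be tested with all libraries, at 1.12 to 5.06 CPM in cold and 0 to 0.504 CPM in control libraries, with no overlap. It was called higher in the 6 single omissions in which it was tested (highest adjusted p 0.00512) and with no filter (3.31, SE 0.56, adjusted p = 0.00119). Every control lay below the filter of 1.75 CPM, so Timp1 could pass the filter only through the cold group, where it was high. These omissions share most of their libraries, so their calls are a description and not repeated support. Of 8 tested receptors and binding partners on cells, 0 rose and 1 fell (median -0.07), where 9.16% of all genes tested were called lower. This was Cspg4, a proteoglycan that binds collagen VI and marks pericytes (-0.71, SE 0.20, adjusted p = 0.0279), and its call was lost without control replicate 1, 4 or 5 or cold replicate 2, 3 or 4 (adjusted p of up to 0.0683) and with limma-voom (0.0592).

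Of 16 tested partners of type IV collagen in the basement membrane, 4 rose and 2 fell (median 0.30), where 10.2% of all genes tested were called higher and 9.16% lower. The laminin chains went in both directions. Lamc3 rose by 0.87 (SE 0.18, adjusted p = 0.00473) and Lamb3 by 0.95 (SE 0.26, adjusted p = 0.0211), with no overlap between the groups. Lamb2 fell by 0.67 (SE 0.13, adjusted p = 0.00437) and stood at 47.3 ± 5.67 CPM in cold and 75 ± 15.3 CPM in control libraries (SD, n = 5 each). Lamb1 was lower (-0.58, adjusted p = 0.0175) and agrin (Agrn, 0.38) and Sparcl1 (0.37) higher, with adjusted p of 0.0327 and 0.0302, and these 3 were named after their values were seen. Of 10 single omissions 3 ended the Lamb3 call, 6 the Agrn call and 7 the Sparcl1 call (highest adjusted p 0.0622, 0.087 and 0.0818), and the replicate block ended the Lamb3 call (0.0599). The count of higher genes was 2 without control replicate 1, 3, 4 or 5 or cold replicate 2, 1 without cold replicate 4 and 6 without cold replicate 5, and that of lower genes was 3 without control replicate 2.

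**Figure D4:**
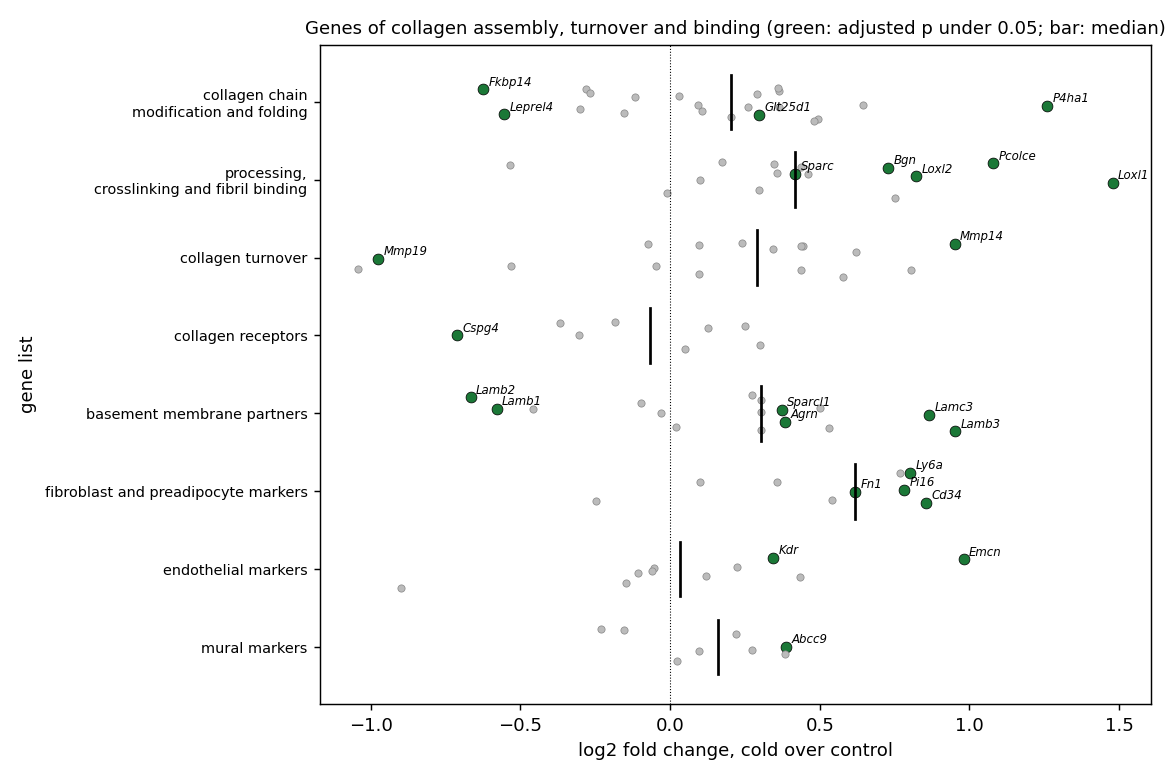
Log2 fold change of cold over control (x axis) for the tested genes of the collagen assembly, turnover, receptor and basement membrane lists and of 3 lists of cell type markers (rows); green points are called at an adjusted p under 0.05 and named, grey points are not, and black bars are list medians. Called genes lie on both sides of 0 in the modification, turnover and basement membrane lists. They lie only to the right in the crosslinking, fibroblast, endothelial and mural lists, and only to the left in the receptor list.

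Markers of the cells that make these collagens were measured beside them. Of 9 tested fibroblast and preadipocyte markers (10 in the table, none at 0), 4 rose and 0 fell, with a median of 0.62, where 10.2% of all genes tested were called higher. They were Ly6a (0.80, adjusted p = 0.003), Cd34 (0.85, adjusted p = 0.0099), Pi16 (0.78, adjusted p = 0.0367) and Fn1 (0.62, adjusted p = 0.0441). The other tested markers were not called: Fbn1 (0.54, adjusted p = 0.0512), Mfap5 (0.77, 0.0902), Clec3b (-0.25, 0.332), Pdgfra (0.36, 0.39) and Dpt (0.10, 0.74). The summed level of all 10 markers was 387, 325, 375, 351 and 194 CPM in cold replicates 1 to 5, against 219, 197, 191, 246 and 223 CPM in control replicates 1 to 5. Much of the difference lay in Ly6a (mean 119 CPM in cold, 68.2 CPM in control libraries) and Cd34 (66.6 and 36.9 CPM). As for the collagens, cold replicates 1 to 4 lay above every control. Cold replicate 5, however, lay within the control range for these markers and below it for the fibrillar sum. Of 10 single omissions 7 ended the Pi16 call and 7 the Fn1 call (highest adjusted p 0.0859 and 0.115), as did limma-voom (0.0576 and 0.0817) and, for Fn1, upper quartile factors (0.0515). The count of higher genes was 2 when control replicate 3, 4 or 5 or cold replicate 1 or 3 was omitted. It was 6 when cold replicate 5 was.

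Of 10 endothelial markers, 2 rose and 0 fell (median 0.03), where 10.2% of all genes tested were called higher. They were Emcn by 0.98 (adjusted p = 0.00193) and Kdr by 0.34 (adjusted p = 0.0312), a call that 5 of 10 single omissions ended (highest adjusted p 0.0831), as did the replicate block (0.0563). Their summed level was 996 to 1218 CPM in cold and 884 to 1255 CPM in control libraries. The count was 1 when control replicate 5 or cold replicate 1, 2 or 4 was omitted. It was 3 when control replicate 2 was. Of 8 mural cell markers 1 rose and 0 fell against the same 10.2%, Abcc9 by 0.39 (adjusted p = 0.014), and 2 rose without control replicate 1 or cold replicate 5. Their summed level was 566 to 803 CPM in cold and 526 to 735 CPM in control libraries. Of 6 tested Schwann cell markers none was called with all libraries, and 3 were lower without cold replicate 1; their summed level was 222 to 400 CPM in cold and 224 to 356 CPM in control libraries.

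Proliferation markers set cold replicate 5 apart as well. The 6 summed to 25.4, 33.5, 33.4, 30.2 and 3.92 CPM in cold replicates 1 to 5, against 1.83 to 8.4 CPM in control libraries. Only 2 of the 6 were tested and both rose, where 10.2% of all genes tested were called higher. These were Mki67 (2.58, adjusted p = 0.00496) and Top2a (2.33, adjusted p = 0.0162). Top2a (adjusted p = 0.177) and the macrophage marker Cd68 (0.0527) were not called with limma-voom. Of 7 tested macrophage markers Cd68 rose (2.12, adjusted p = 0.00673) and C1qa was lower (-0.58, adjusted p = 0.0213), against 10.2% higher and 9.16% lower of all genes tested. The C1qa call was lost without control replicate 4 or 5 or cold replicate 4 and with the replicate block (0.0631). The macrophage markers summed to 50.8 to 129 CPM in cold and 79.9 to 119 CPM in control libraries. Skeletal muscle markers summed to 327 and 225 CPM in cold replicates 2 and 3, against 7.09 to 12 CPM in the other cold and 5.77 to 78.2 CPM in control libraries. The part of these cell types in the collagen levels was not tested.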

How the data were processed

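Whole-depot poly-A RNA of 10 mice was sequenced. The authors deposited counts per gene for each library with the bases counted per gene, and a table of log2 fold changes and p-values per gene. Per the submitters' processing notes, STAR, mm9 and edgeR were used; their versions and the counting tool were not given in the sources used here. Control columns carry no group word and were matched by replicate number; 0 columns were left unused. The counts were tested with edgeR 4.0.16 in R 4.3.3 (TMM factors, filterByExpr, quasi-likelihood F test, group as the only term, Benjamini-Hochberg adjustment over 11229 of 20295 genes), after the procedure had been tested on simulated data. The SE is the absolute log2 fold change over the square root of F. Class sums were not tested. Alternatives were RLE, upper quartile and no factors, library sizes without the 20 most abundant genes, no filter, CPM above 1 in 5 libraries, DESeq2 1.42.0, limma-voom (limma 3.58.1), a replicate block and leaving out libraries. Full values are given for tested members of the 3 classes and for called collagens, log2 fold changes for other tested members and counts for untested ones. Each pathway list names its 2 called genes of smallest p and 2 of largest change, each marker list its called members, and genes named later are marked. The collagens, classes and lists were chosen with earlier results of these data known. Nothing in the labels says more of how the mice relate, so p-values measure the spread between these libraries. The library kit does not mark strand, and overlapping genes can share reads. Totals of 4446163 to 6923932 counts limit the precision of the rarest collagens.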

Additional observations from a re-analysis of the deposited data

Results flagged for a closer look

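Of 56 groups of 5 libraries examined among the collagens and their class sums, 4 held a library whose gap to the nearest other exceeded 0.71 of the group's range. Chance gives about 1 in 20, and the count is near that share. Cold replicate 5 stood at 420.3 CPM for Col4a1, where the other cold libraries lay at 609.7 to 650.1 CPM. It also stood at 10.45 CPM for Col15a1, where the others lay at 45.9 to 55.6 CPM. In the summed basement membrane level it stood at 124.3 CPM per kb, where the others lay at 177 to 194 CPM per kb. Col4a1 held 51.6% of that sum in cold libraries, so this flag is not separate from that of Col4a1. Control replicate 4 stood at 2.857 CPM for Col13a1, where the other controls lay at 1.15 to 1.58 CPM.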

How the results depend on the processing

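The count of collagens called lower was 2 under all 20 alternatives, where 5.99% to 11.7% of all genes were called lower. Col4a1, Col4a2, Col20a1 and Col23a1 were called in each of them. The count called higher ranged between 2 and 12 with 1 library left out, where 7.29% to 11.5% of all genes were. It was 13 without control replicate 2 and cold replicate 5, where 13.6% of all genes were. The direction turned for genes that were not called: Col5a3 ranged from -0.47 to 0.14 over the single omissions, Col11a2 from -0.38 to 0.0016 and Col27a1 from -0.22 to 0.082, and Col27a1 was at 0.019 with limma-voom. Without control replicate 2 and cold replicate 5 together, Col11a2 was at -0.48. The cause was not tested. The same-numbered libraries did not pair (correlations of their deviations 0.13, -0.02, -0.07, 0.19 and -0.25), and cold replicate 4 alone matched its own number best. With the replicate block, 4 collagens were higher and 2 lower (8.74% and 7.2% of all genes), Col13a1 was no longer called (adjusted p = 0.0532), and Col1a1 was at an adjusted p of 0.0834. Over the members, 452 results under alternatives kept direction and call, 20 gained and 22 lost the call, and 6 turned. Depth limits the 19 untested collagens and those of a few counts.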
